A study of Mus musculus with 12 samples.

Results

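Acyl-CoA thioesterases of the Acot family were followed in the liver RNA of mice with and without phosphatidylcholine transfer protein (PC-TP). The 9 genes Acot1, Acot2, Acot3, Acot4, Acot7, Acot8, Acot9, Acot11 and Acot12 were taken by symbol from a table of 35275 genes, with Acot13 set aside as a neighbour. The list was drawn up with earlier results of these data known. It left out Acot5, Acot6 and Acot10, which lay under the filter on low values. All 9 listed genes passed this filter, which left 12466 genes for testing. Whole liver was sequenced from male wild-type (WT) mice and from whole-body knockout (Pctp-/-) mice, kept on a chow diet or on the methionine and choline depleted (MCD) diet. Each of the 4 groups held 3 mice, and each of the 12 libraries came from a different mouse. The diet starves the liver of precursors of phosphatidylcholine, and the study used it to ask how PC-TP bears on gene expression in a steatotic liver. The age of these mice and the time on the diet were not given in the sources used here. Since the deletion is present in all tissues, an effect of PC-TP in hepatocytes cannot be told apart from one in another organ.

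Acyl-CoA thioesterases cleave a fatty acyl-CoA into a free fatty acid and CoA, and so act against the acyl-CoA synthetases that activate fatty acids. The enzymes are spread over the compartments of the cell, with different acyl chains preferred in each, and they set the balance between acyl-CoA and free CoA where fatty acids are oxidised. Several family members are known targets of PPARα in rodent liver. PC-TP belongs to the START domain proteins, a lipid-binding fold that Acot11 and Acot12 also carry, and PC-TP is known to bind Acot13, also called Them2.

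The libraries held 30486576 to 55179468 uniquely mapped reads, and the deposited values were FPKM, the fragments of a gene scaled by its length and the library's depth. From gene length and these totals, the members rested on roughly 29 fragments (the lowest value of Acot9) to 3400 (the highest of Acot12) per library. The sequencing measures split by diet. Multiply mapped reads were 4.07 to 4.84% in the 6 chow libraries and 6.5 to 7.4% in the 6 MCD libraries. Their part in the values of genes that share sequence was not tested. Uniquely mapped reads were 77.6 to 79.4% in the 6 chow libraries and 85.7 to 87.5% in the 6 MCD libraries, and the given error rate was 0.03% against 0.01%, so diet and sequencing set cannot be told apart, while genotypes were compared within a set. Pctp was at 2.25, 1.21 and 2.65 FPKM in WT and 0.566, 0.364 and 0.330 FPKM in Pctp-/- mice on chow, and at 7.90, 5.10 and 3.61 FPKM against 0.156, 0.329 and 0.293 FPKM on MCD, lower in each Pctp-/- mouse on both diets. All 10 hepatocyte markers were detected in each group, with summed values of 42662 to 48390 FPKM on chow, and on MCD of 54923 to 61751 FPKM in WT and 69682 to 75689 FPKM in Pctp-/- mice, which did not overlap. Most of each sum was Alb. Its mean was 27788 FPKM in WT on chow, and 43899 FPKM in WT and 57218 FPKM in Pctp-/- mice on MCD. Of the 10 markers, 2 were higher and 5 lower on MCD in each genotype at an adjusted p under 0.05 from limma. Over all tested genes, 34.5% were higher and 22.5% lower in WT, and 26.0% and 24.4% in Pctp-/- mice. The 10 macrophage markers summed to 63.1 to 167 FPKM on chow and 272.9 to 528 FPKM on MCD, and the 10 stellate cell markers to 40.8 to 71.6 FPKM on chow and 157 to 229 FPKM on MCD. In whole liver, fewer cells of a type and less RNA per cell cannot be told apart.

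Acot1, Acot2, Acot3 and Acot4, which share an alpha/beta-hydrolase fold, lie with Acot5 and Acot6 in a run of 6 genes on the plus strand of chromosome 12 (GRCm38, 83987861 to 84111349, 123.5 kb). Acot2 (ENSMUSG00000021226), the mitochondrial enzyme for long-chain acyl-CoA, comes first at 83987861 to 83993873. It is followed by Acot1 (ENSMUSG00000072949), its cytosolic counterpart, at 84009490 to 84018371. The genes for the peroxisomal enzymes Acot4 (ENSMUSG00000052392), known for succinyl-CoA, and Acot3 (ENSMUSG00000021228), a long-chain thioesterase, lie at 84038379 to 84048601 and at 84052144 to 84060402. Coding sequences of Acot1 and Acot2 were identical at 85.5% of aligned bases, those of Acot1 and Acot3 at 81.4%, and those of Acot3 and Acot4 at 72.4%. Of the windows of 150 bases along the Acot1 transcript, 12.4% also occurred in the transcript of another gene, mostly Acot2. For Acot2 the share was 10.2%, for Acot3 13.5% and for Acot4 7.73%. Both Acot3 and Acot4 overlap 4732463B04Rik on the opposite strand and Gm49366 on their own strand. Whether the libraries kept the strand is not given in the sources used here, so reads of overlapping genes may not be separable.

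The promoters of these neighbours are shown because the genes lie side by side and differed in their response to diet. That of Acot12 is added because it held the closest match to a paired nuclear receptor site among the members. Windows run from 250 bases before to 50 bases after the start (RefSeq, GRCm38.p6, plus strand). Capitals mark the half-site AGGTCA, bound by PPAR-RXR and other nuclear receptors, read on the reverse strand as TGACCT, or 2 such half-sites in the same direction with 1 base between them and at most 2 mismatches.
Acot2, chr12:83987611-83987910: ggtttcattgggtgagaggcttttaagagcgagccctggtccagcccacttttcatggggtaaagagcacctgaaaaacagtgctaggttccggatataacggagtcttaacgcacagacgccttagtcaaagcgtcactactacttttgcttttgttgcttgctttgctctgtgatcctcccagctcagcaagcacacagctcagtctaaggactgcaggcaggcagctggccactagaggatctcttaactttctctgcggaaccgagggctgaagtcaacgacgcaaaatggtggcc
Acot1, chr12:84009252-84009551: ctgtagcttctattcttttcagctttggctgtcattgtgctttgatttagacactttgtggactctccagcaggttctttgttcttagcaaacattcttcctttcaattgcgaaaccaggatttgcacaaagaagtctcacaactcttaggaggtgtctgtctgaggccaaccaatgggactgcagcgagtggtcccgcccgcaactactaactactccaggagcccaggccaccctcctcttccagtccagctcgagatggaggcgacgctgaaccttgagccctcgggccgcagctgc
Acot4, chr12:84038129-84038428: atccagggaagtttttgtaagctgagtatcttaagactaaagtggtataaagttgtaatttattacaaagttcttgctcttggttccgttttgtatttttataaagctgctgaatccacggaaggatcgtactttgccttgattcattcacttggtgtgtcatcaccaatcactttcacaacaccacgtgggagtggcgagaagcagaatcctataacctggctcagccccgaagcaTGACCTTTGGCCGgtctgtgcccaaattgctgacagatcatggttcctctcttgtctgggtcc
Acot3, chr12:84051894-84052193: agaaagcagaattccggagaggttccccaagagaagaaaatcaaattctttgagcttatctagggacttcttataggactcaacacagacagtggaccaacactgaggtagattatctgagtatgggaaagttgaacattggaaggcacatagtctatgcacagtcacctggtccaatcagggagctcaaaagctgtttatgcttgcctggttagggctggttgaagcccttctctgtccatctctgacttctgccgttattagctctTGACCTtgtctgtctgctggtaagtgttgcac
Acot12, chr13:91741271-91741570: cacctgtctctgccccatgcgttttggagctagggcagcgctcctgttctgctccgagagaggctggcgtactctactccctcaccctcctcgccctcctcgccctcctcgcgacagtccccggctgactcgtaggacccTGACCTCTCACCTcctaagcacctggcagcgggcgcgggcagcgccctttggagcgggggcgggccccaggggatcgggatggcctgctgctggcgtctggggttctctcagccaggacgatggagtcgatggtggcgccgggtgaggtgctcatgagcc
Both strands were searched in the windows of all 9 members, 11 in all. The exact half-site occurred in 16.3% of 32851 mouse promoter windows and the pair in 3.86%. The Acot4 window held a pair with 2 mismatches starting 13 bases before the start, and the Acot12 window a pair with 1 mismatch starting 110 bases before it. Acot3 held a single half-site, after the start. The windows of Acot1, Acot2, Acot7, Acot8, Acot9 and Acot11 held neither form. A match is a string of letters and not a bound site, and the absence of one says only that these letters are not in the window.

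On chow, the family was dominated by 3 genes. Acot12 (ENSMUSG00000021620; chromosome 13, 91741512 to 91786148, plus strand), a cytosolic acetyl-CoA hydrolase typical of liver, was highest at 35.8 ± 2.99 FPKM (SD, n = 3) in WT, followed by Acot1 at 25.0 ± 5.35 FPKM and Acot7 at 22.0 ± 3.67 FPKM. Acot7 (ENSMUSG00000028937; chromosome 4, 152178134 to 152271855, plus strand) encodes a cytosolic long-chain thioesterase that is also abundant in brain. Acot12 lay above the range of Acot1, while Acot1 and Acot7 overlapped. Then came the peroxisomal enzymes Acot8, at 12.9 ± 0.894 FPKM, Acot4, at 9.61 ± 2.40 FPKM, and Acot3, at 4.78 ± 3.25 FPKM, with Acot2 at 3.66 ± 0.957 FPKM. In this stretch each gene overlapped the next. Lowest were Acot11 at 2.07 ± 0.350 FPKM and Acot9 at 1.05 ± 0.210 FPKM, each below the range of the gene before. The order in Pctp-/- mice on chow differed in one place, with Acot2 (4.44 ± 1.10 FPKM) and Acot3 (3.59 ± 3.22 FPKM) exchanged, and the ranges of these genes overlapped.

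**Figure D1:**
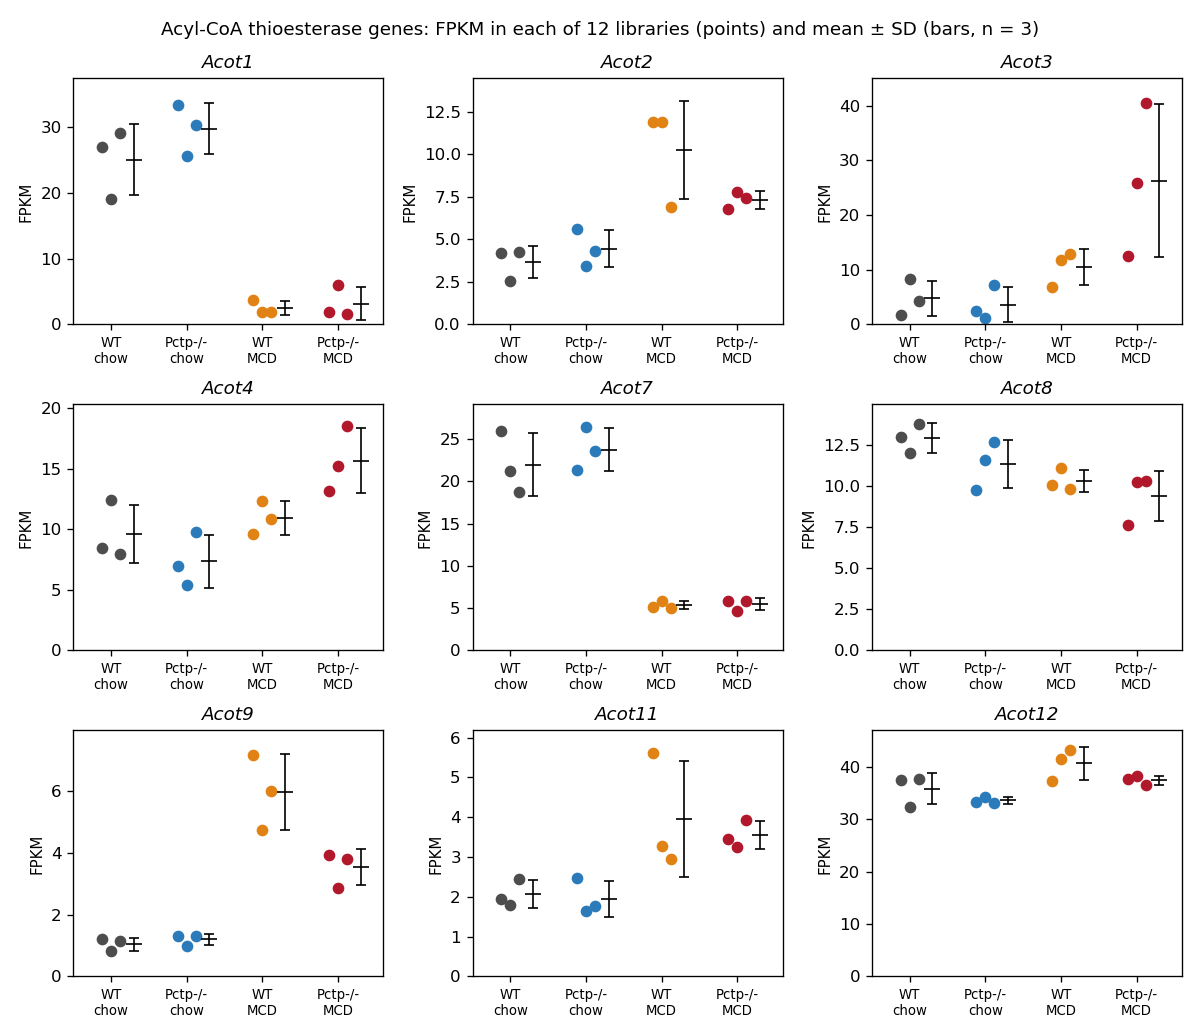
FPKM of each of the 9 thioesterase genes (vertical axes, linear from 0) in the 12 livers, grouped by genotype and diet along the horizontal axis, with points for mice and bars for mean ± SD (n = 3). Acot1 lies between 19.0 and 33.3 FPKM on chow and between 1.53 and 6.05 FPKM on MCD, while the 3 Pctp-/- mice on MCD spread from 12.5 to 40.4 FPKM for Acot3.

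The make-up of the family differed between chow and MCD livers in both genotypes, where diet and sequencing set cannot be told apart. Acot1 and Acot7 fell, and Acot2, Acot9 and Acot11 rose, in WT and in Pctp-/- mice alike, while Acot3 and Acot4 passed in Pctp-/- mice and not in WT, with no call for the difference between the genotypes. In WT mice 5 of the 9 genes passed at a Benjamini-Hochberg adjusted p under 0.05 from limma, where 57.0% of all tested genes did. Of these, 3 were higher on MCD, against 34.5% of all genes, and 2 were lower, against 22.5%. In Pctp-/- mice 7 of 9 passed, against 50.3%, with 5 higher, against 26.0%, and 2 lower, against 24.4%. The 5 that passed in both genotypes compare with 40.9% of all tested genes. The values of the diet groups did not overlap for 6 of 9 genes in WT, against 63.7% of all genes, and for 8 of 9 in Pctp-/- mice, against 59.7%. The share of thioesterases that passed in WT was near that of all genes. The median absolute log2 fold change over the 9 genes was 1.11 in WT and 1.01 in Pctp-/- mice, and 0.42 and 0.37 over all tested genes. With quantile or median-of-ratios scaling in place of the deposited values, the median change over all tested genes moved from 0.11 to 0.01 and -0.0013 in WT, and the called genes from 4300 higher and 2810 lower to 3706 and 3478 and to 3546 and 3527.

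Acot1 showed the largest fall among the 9 genes in both genotypes. In WT mice it was at 27.0, 19.0 and 29.1 FPKM on chow and at 3.70, 1.88 and 1.95 FPKM on MCD. In Pctp-/- mice it was at 33.3, 25.6 and 30.3 FPKM on chow and at 1.84, 6.05 and 1.53 FPKM on MCD. The diets did not overlap, and replicate 2 of the Pctp-/- mice on MCD was the highest on that diet. The mean FPKM was 9.96-fold lower on MCD in WT and 9.47-fold lower in Pctp-/- mice, and the log2 fold change of FPKM + 1, the scale of all tests here, was -2.90 (SE, the standard error, 0.33, adjusted p = 1.8e-05 from limma) and -3.05 (SE 0.33, adjusted p = 1.7e-05). The added 1 shrinks the fold change of weakly expressed genes. It stayed at -2.77 or lower under each of 21 alternative fits in both genotypes.

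Acot2, the neighbour that shares the most sequence with Acot1, moved the other way. WT mice had 4.19, 2.55 and 4.23 FPKM on chow and 11.9, 11.9 and 6.92 FPKM on MCD, without overlap. On the log2 scale the rise was 1.26 (SE 0.21, adjusted p = 3.5e-04). Pctp-/- mice had 5.61, 3.44 and 4.28 FPKM on chow and 6.76, 7.77 and 7.42 FPKM on MCD, also without overlap but with a narrower gap. Here the rise was 0.63 (SE 0.21, adjusted p = 0.0269), and the call was lost with no filter on low values (adjusted p = 0.0597) and without Pctp-/- chow replicate 2 (adjusted p = 0.108), chow replicate 3 (0.0615), MCD replicate 2 (0.0756) or MCD replicate 3 (0.0657). The ratio of Acot1 to Acot2 was 6.43 to 7.44 in WT mice on chow and 5.93 to 7.46 in Pctp-/- mice on chow. On MCD it was 0.159 to 0.311 in WT and 0.207 to 0.778 in Pctp-/- mice, so Acot1 was the higher of the pair in every chow liver and the lower in every MCD liver. Together the pair summed to 28.7 ± 6.30 FPKM (SD, n = 3) in WT and 34.2 ± 4.93 FPKM in Pctp-/- mice on chow, and to 12.7 ± 3.48 and 10.5 ± 2.92 FPKM on MCD.

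Acot7 fell, with a spread within groups (SD 0.165 on the log2 scale) near the median of 0.167 over all tested genes. It was at 26.0, 21.2 and 18.7 FPKM in WT mice on chow and at 5.16, 5.86 and 5.03 FPKM on MCD. In Pctp-/- mice it was at 21.3, 26.3 and 23.6 FPKM on chow and at 5.87, 4.66 and 5.86 FPKM on MCD. Each MCD liver lay far below each chow liver. On the log2 scale the change was -1.85 (SE 0.13, adjusted p = 5.5e-07) in WT and -1.94 (SE 0.13, adjusted p = 4.8e-07) in Pctp-/- mice.

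Acot9 (ENSMUSG00000025287; chromosome X, 155262443 to 155297654, plus strand) encodes a mitochondrial thioesterase of the hotdog fold, and it showed the largest called rise in WT mice. WT mice had 1.20, 0.810 and 1.14 FPKM on chow and 7.19, 4.74 and 6.03 FPKM on MCD. Pctp-/- mice had 1.31, 1.00 and 1.30 FPKM on chow and 3.95, 2.87 and 3.81 FPKM on MCD. No MCD liver reached down to a chow liver, and the 3 Pctp-/- livers on MCD lay below the 3 WT livers on MCD. Mean FPKM was 5.70-fold higher on MCD in WT, and log2(FPKM + 1) rose by 1.76 (SE 0.15, adjusted p = 2.1e-06) in WT and 1.04 (SE 0.15, adjusted p = 1.4e-04) in Pctp-/- mice. Of the 9 macrophage markers tested, 8 rose on MCD in WT and 4 in Pctp-/- mice, with 0 falling, and of the 10 stellate cell markers 5 and 4 rose. Over all tested genes, 34.5% rose in WT and 26.0% in Pctp-/- mice. The part of these markers in the rise of Acot9 was not tested. The Acot9 coding sequence was identical to that of Acot10 at 97.2% of bases, and Acot10 was listed at 0 in all libraries. Of the 1603 windows of 150 bases along the Acot9 transcript, 0 also occurred in a transcript of another gene.

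Acot11 (ENSMUSG00000034853; chromosome 4, 106744555 to 106804998, minus strand), a long-chain thioesterase with a START domain that is best known from brown fat, rose by less. It was at 1.95, 1.79 and 2.46 FPKM in WT mice on chow and at 5.63, 3.29 and 2.95 FPKM on MCD, where replicate 1 stood above the rest. Pctp-/- mice had 2.47, 1.64 and 1.76 FPKM on chow and 3.46, 3.24 and 3.93 FPKM on MCD. Neither genotype overlapped between diets. On the log2 scale the rise was 0.66 (SE 0.18, adjusted p = 0.00882) in WT and 0.63 (SE 0.18, adjusted p = 0.0133) in Pctp-/- mice. The call in Pctp-/- mice was lost without chow replicate 2 (adjusted p = 0.0524) or MCD replicate 3 (adjusted p = 0.05002). Of the 150-base windows of the Acot11 transcript, 21.7% also occurred in Fam151a on the opposite strand. Fam151a was listed at 0 FPKM in all libraries.

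The peroxisomal pair Acot3 and Acot4 rose on MCD in Pctp-/- mice. Acot3 was at 2.41, 1.12 and 7.22 FPKM in these mice on chow and at 12.5, 25.9 and 40.4 FPKM on MCD, without overlap but with a wide range in each group. Mean FPKM was 7.33-fold higher, and the log2 fold change of 2.66 (SE 0.54, adjusted p = 0.00149) was the largest rise of the family. In WT mice Acot3 was at 1.80, 8.24 and 4.30 FPKM on chow and at 6.84, 11.7 and 12.9 FPKM on MCD, and the diets overlapped. The log2 fold change there was 1.11 (95% interval -0.06 to 2.29, adjusted p = 0.0962). It passed when only the 6 WT libraries were fitted (adjusted p = 0.0452), with the replicate number as a block (0.0386) and without WT chow replicate 2 (0.0416), and over 21 alternatives its adjusted p ranged from 0.0386 to 0.333.

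Acot4 was at 6.95, 5.38 and 9.73 FPKM in Pctp-/- mice on chow and at 13.2, 15.2 and 18.5 FPKM on MCD, without overlap. This was a rise of 1.014 on the log2 scale (SE 0.20, adjusted p = 0.00129). WT mice had 8.48, 12.4 and 7.98 FPKM on chow and 9.59, 12.3 and 10.8 FPKM on MCD, which overlapped, with a log2 fold change of 0.18 (95% interval -0.25 to 0.62, adjusted p = 0.453). The overlapping 4732463B04Rik had log2 fold changes of 1.21 (adjusted p = 0.0209) in Pctp-/- mice and 0.0019 (adjusted p = 0.997) in WT mice, and the difference between them did not pass (1.21, SE 0.55, adjusted p = 0.325). Its reads may be shared with both genes, and its part in their values was not tested.

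Acot8 and Acot12 passed in neither genotype. Acot8 (ENSMUSG00000017307; chromosome 2, 164792765 to 164804882, minus strand), a peroxisomal thioesterase of broad chain length, was at 12.98, 12.004 and 13.8 FPKM in WT mice on chow and at 10.1, 11.1 and 9.80 FPKM on MCD. These did not overlap, yet the log2 fold change of -0.30 (95% interval -0.57 to -0.02) had an adjusted p of 0.0598. It passed after quantile normalization (0.0125), median-of-ratios scaling (0.00911), with only the WT libraries (0.0359), with the replicate block (0.0440) and without replicate 1 of the Pctp-/- mice on chow (0.0408) or on MCD (0.0349). In Pctp-/- mice Acot8 was at 9.78, 11.6 and 12.7 FPKM on chow and at 7.63, 10.2 and 10.3 FPKM on MCD, which overlapped, with a log2 fold change of -0.25 (95% interval -0.53 to 0.02, adjusted p = 0.114). It passed there without chow replicate 1 (adjusted p = 0.0411). Acot8 overlaps Snx21 on the opposite strand, and 9.47% of the 150-base windows of its transcript also occurred in Snx21. On MCD, Snx21 had log2 fold changes of -0.83 in WT (adjusted p = 2.6e-05 from limma) and -0.69 in Pctp-/- mice (adjusted p = 1.3e-04). The part of Snx21 in the values of Acot8 was not tested.

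Acot12 was at 37.4, 32.4 and 37.7 FPKM in WT mice on chow and at 37.2, 41.5 and 43.3 FPKM on MCD, which overlapped. Pctp-/- mice had 33.4, 34.3 and 33.1 FPKM on chow and 37.7, 38.2 and 36.5 FPKM on MCD, which did not overlap. The log2 fold change was 0.18 (95% interval -0.01 to 0.37, adjusted p = 0.0981) in WT and 0.15 (95% interval -0.04 to 0.34, adjusted p = 0.161) in Pctp-/- mice. Without WT MCD replicate 1, the lowest of its group, the WT value became 0.24 and passed (adjusted p = 0.0453). It was 0.083 after quantile normalization (adjusted p = 0.434) and 0.039 after median-of-ratios scaling (adjusted p = 0.761), and 0.11 without WT chow replicate 2 (adjusted p = 0.344).

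**Figure D2:**
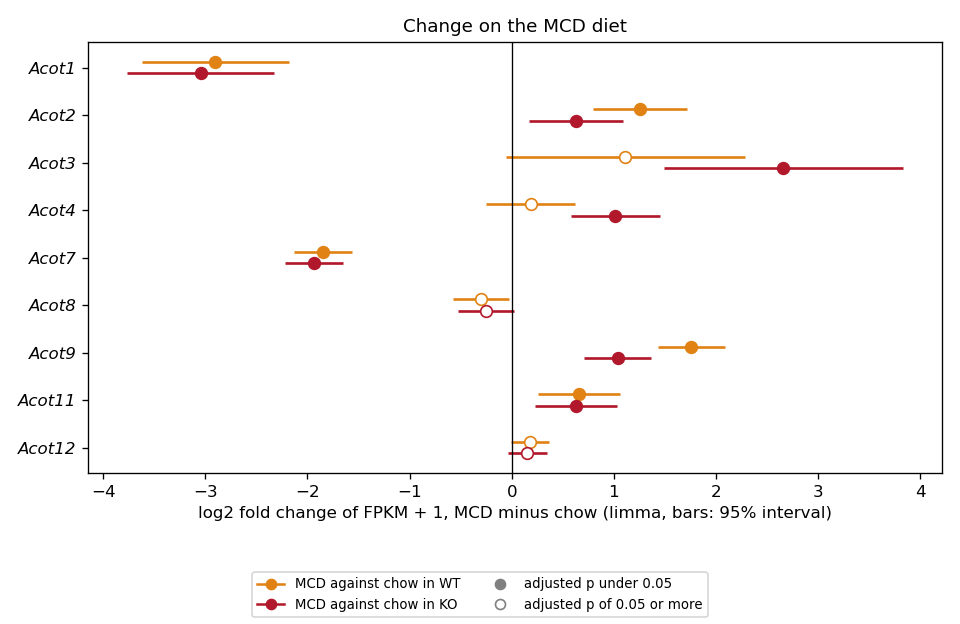
Log2 fold change of FPKM + 1 between MCD and chow for the 9 genes (horizontal axis, bars for the 95% interval from limma), in WT in orange and in Pctp-/- mice in red, with filled points at an adjusted p under 0.05. Acot1 and Acot7 lie left of 0 in both genotypes, and Acot3 and Acot4 are filled in Pctp-/- mice only.

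Within the cluster of 6 genes over 123.5 kb, the 4 genes tested thus moved in both directions. Acot1 lies between Acot2 and Acot4 and was the one that fell. Acot5 and Acot6, at the far end, were at 0 to 0.138 FPKM and 0.171 to 0.682 FPKM over the 12 livers and stayed under the filter. The sum of Acot1 to Acot4 was 43.1 ± 2.26 FPKM (SD, n = 3) in WT and 45.1 ± 8.45 FPKM in Pctp-/- mice on chow, and 34.2 ± 3.18 and 52.4 ± 16.9 FPKM on MCD.

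**Figure D3:**
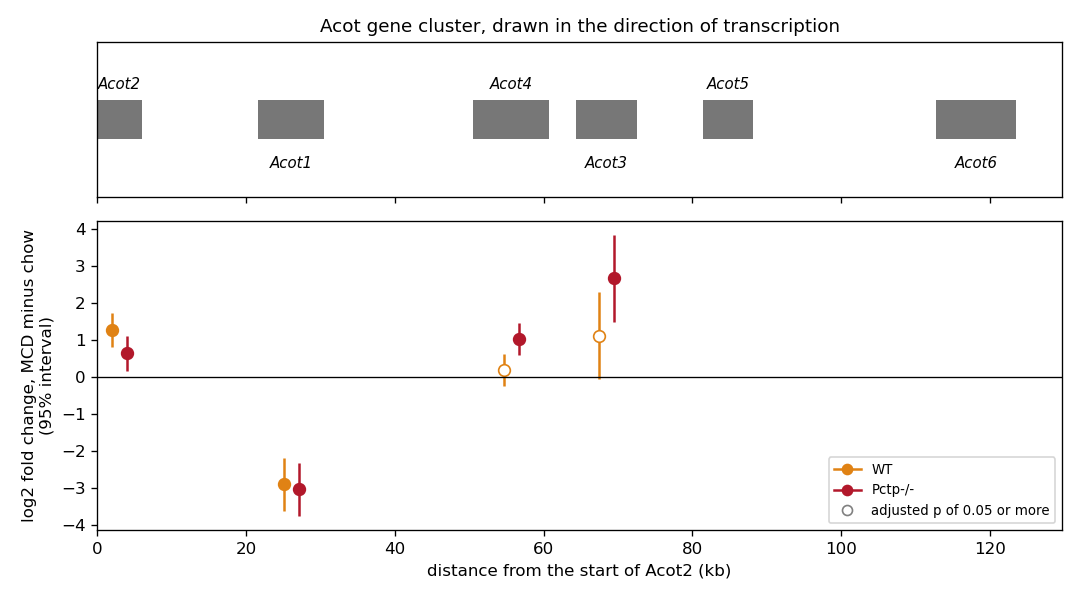
The 6 genes of the Acot cluster as boxes along the direction of transcription, with distance from the start of Acot2 in kb on the horizontal axis, above the log2 fold change between MCD and chow of the 4 tested genes (bars, 95% interval), in WT in orange and Pctp-/- in red. Acot1 lies at -2.90 and -3.05, below its neighbours on both sides, and open points mark an adjusted p of 0.05 or more.

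On MCD, Acot12 was left as the most abundant member of the family. It reached 40.7 ± 3.09 FPKM (SD, n = 3) in WT, 40.5% of the summed FPKM of the 9 genes, against 30.6% on chow, and lay above the range of each other gene. Acot1 went from 21.4% of the sum to 2.50% in WT and ended as the lowest of the 9. The genes from Acot4 (10.9 ± 1.37 FPKM) through Acot3 (10.5 ± 3.22), Acot8 (10.3 ± 0.671) and Acot2 (10.2 ± 2.87) overlapped each with the next. In Pctp-/- mice on MCD the order was Acot12 at 37.5 ± 0.862 FPKM, Acot3 at 26.3 ± 14.0 FPKM and Acot4 at 15.6 ± 2.68 FPKM, with overlap between neighbours in this order. Acot3 made up 23.5% of the sum in that group. The summed FPKM of the family was 117 ± 5.72 in WT and 117 ± 6.76 in Pctp-/- mice on chow, and 100.4 ± 3.52 and 112 ± 17.9 on MCD.

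**Figure D4:**
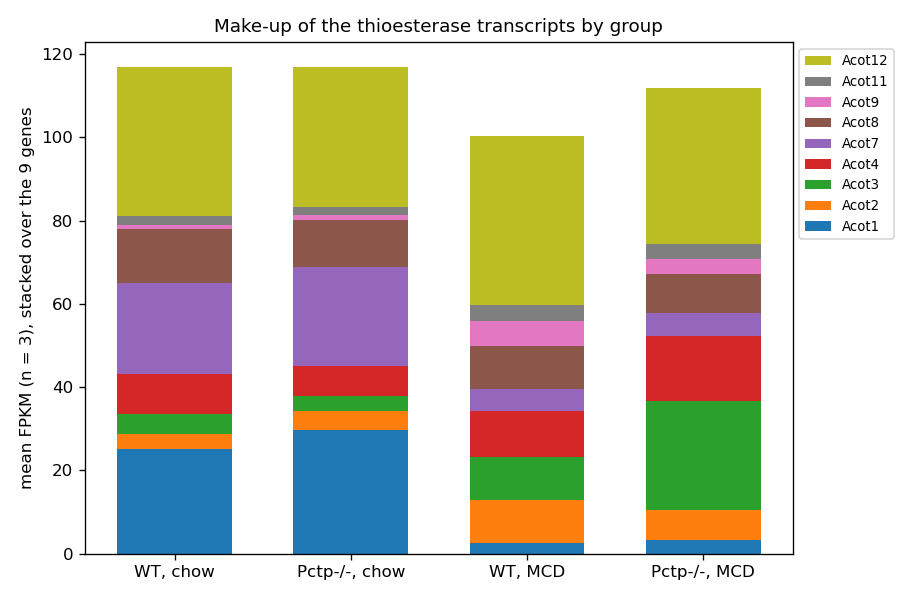
Mean FPKM of the 9 genes stacked for each group (vertical axis, linear from 0; n = 3 mice a group). The totals lie between 100.4 and 117 FPKM, while the share of Acot1 goes from 21.4% in WT on chow to 2.50% in WT on MCD and Acot3 reaches 23.5% in Pctp-/- mice on MCD.

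Between the genotypes, none of the 9 genes passed at an adjusted p under 0.05 from limma on either diet. On chow, 0 of 9 passed, where 0.136% of all tested genes did, and 0 of 9 had an unadjusted p under 0.05, against 6.98%. Pctp itself did not pass on chow (adjusted p = 0.150), so a gene that did not pass there may still differ. The genotypes overlapped in all 9 genes on chow, where 10.6% of all tested genes did not overlap. Acot6, under the filter and not among the 9, did not overlap on chow. It was at 0.171 to 0.310 FPKM in WT and 0.495 to 0.631 FPKM in Pctp-/- mice, and was not tested. On MCD, 0 of 9 passed, against 0.818%, 2 of 9 had an unadjusted p under 0.05, against 16.3%, and the same 2, Acot4 and Acot9, did not overlap, against 26.6%. The median absolute log2 fold change over the members was 0.18 on chow and 0.13 on MCD, beside 0.10 and 0.14 over all tested genes.

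On chow, the largest point estimates were those of Acot3, with a log2 fold change of -0.40 (95% interval -1.57 to 0.77), and Acot4, at -0.36 (95% interval -0.79 to 0.08, adjusted p = 0.803). Acot1 was at 0.25 (95% interval -0.47 to 0.97) and Acot2 at 0.23 (95% interval -0.23 to 0.69). Acot12 was the most tightly bound, at -0.09 (95% interval -0.28 to 0.10), so a change of more than 0.28 in either direction lay outside its interval. The remaining 4 genes lay between -0.18 (Acot8) and 0.11 (Acot7 and Acot9).

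On MCD, Acot9 came closest to the threshold. The Pctp-/- mice, at 3.95, 2.87 and 3.81 FPKM, were all lower than the WT mice, at 7.19, 4.74 and 6.03 FPKM, a ratio of means of 1.69. The log2 fold change was -0.61 (95% interval -0.94 to -0.29, unadjusted p = 0.00146, adjusted p = 0.0871). It passed with the replicate number as a block (adjusted p = 0.0244), and over 20 alternatives the adjusted p ranged from 0.0244 to 0.319. Macrophage markers on MCD summed to 272.9 to 528 FPKM in WT and 282 to 350 FPKM in Pctp-/- mice, and 0 of 9 passed between the genotypes, with 1 at an unadjusted p under 0.05. Of the 10 hepatocyte markers, whose sums were mostly Alb and were higher in the Pctp-/- mice on MCD, 0 passed and 4 had an unadjusted p under 0.05. Over all tested genes, 16.3% had an unadjusted p under 0.05 in this comparison. The part of either set of markers in the genotype differences of Acot9 and Acot4 was not tested.

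Acot4 went the other way. The Pctp-/- mice on MCD, at 13.2, 15.2 and 18.5 FPKM, lay above the WT mice, at 9.59, 12.3 and 10.8 FPKM. Their difference was 0.47 on the log2 scale (95% interval 0.04 to 0.91, unadjusted p = 0.0362, adjusted p = 0.271). Acot3 had the largest point estimate, 1.15, with an interval of -0.03 to 2.32 (adjusted p = 0.316), and its lowest Pctp-/- value of 12.5 FPKM lay under the highest WT value of 12.9 FPKM. Acot2 was at -0.40 (95% interval -0.86 to 0.06, adjusted p = 0.384). For Acot1, Acot7, Acot8, Acot11 and Acot12 the log2 fold change lay between -0.13 and 0.11.

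**Figure D5:**
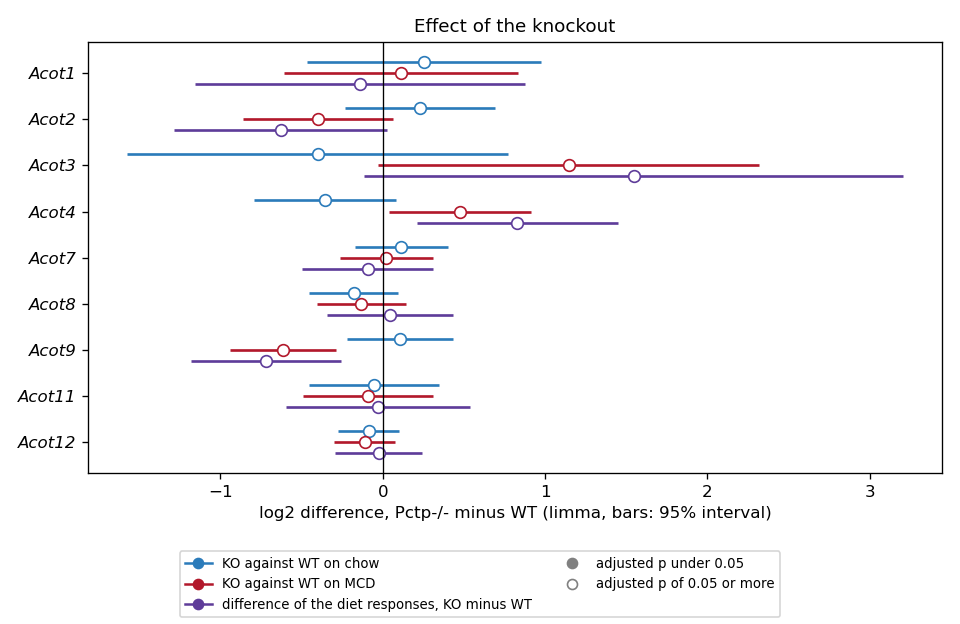
Log2 difference of FPKM + 1 between Pctp-/- and WT mice for the 9 genes (horizontal axis, bars for the 95% interval from limma), on chow in blue and on MCD in red, with the difference of the diet responses in purple. All points are open, as 0 of 9 genes passed, and the MCD intervals of Acot4 and Acot9 leave 0 out on opposite sides.

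Whether the diet response differed between the genotypes was tested directly, since passing in one genotype and not in the other is no test of a difference. At an adjusted p under 0.05 from limma 0 of 9 genes passed, where 0.0963% of all tested genes did, and 2 of 9 had an unadjusted p under 0.05, against 15.1%. Acot9 rose by 0.72 less in Pctp-/- mice (difference -0.72, SE 0.21, unadjusted p = 0.00526, adjusted p = 0.156). The response of Acot4 was larger in Pctp-/- mice by 0.83 (SE 0.28, unadjusted p = 0.0128, adjusted p = 0.198). For Acot3 the difference was 1.55 with an interval of -0.11 to 3.21 (adjusted p = 0.363), and for Acot2 it was -0.63 with an interval of -1.28 to 0.03 (adjusted p = 0.349). These comparisons share their mice with the diet and genotype comparisons above. For the falls of Acot1 and Acot7 the differences were -0.14 (95% interval -1.16 to 0.88) and -0.09 (95% interval -0.50 to 0.31), and the sign of both changed with a library left out.

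The 9 genes differed in how far mice of a group spread. The SD within groups, pooled over the 4 groups on the log2 scale, was 0.81 for Acot3, above 99.5% of tested genes, and 0.49 for Acot1, above 97.3%. Acot2 (0.30) and Acot4 (0.28) lay above 87.0% and 84.8% of genes. The 4 genes of the cluster were thus the most variable of the 9. Acot12 was at 0.084, above 5.24% of genes, and the median over all tested genes was 0.17. Within a group the highest Acot3 value was 1.89 to 6.47 times the lowest. The mouse with the highest Acot3 was also the one with the highest Acot4 in WT on chow (replicate 2), Pctp-/- on chow (replicate 3) and Pctp-/- on MCD (replicate 3), but not in WT on MCD, where Acot3 was highest in replicate 3 and Acot4 in replicate 2. Both genes overlap the same annotated genes, as given above.

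Among the other thioesterases listed, Acot13 (Them2), the binding partner of PC-TP, was at 29.9, 43.9 and 46.1 FPKM in WT and 37.2, 40.2 and 50.8 FPKM in Pctp-/- mice on chow. On MCD it was at 37.6, 47.8 and 44.1 FPKM in WT and 48.5, 49.0 and 59.2 FPKM in Pctp-/- mice, where all 3 Pctp-/- values were higher. The log2 fold change between genotypes was 0.11 (95% interval -0.26 to 0.47) on chow and 0.27 (95% interval -0.10 to 0.64, adjusted p = 0.459) on MCD, and 0.13 and 0.29 between diets in WT and Pctp-/- mice, none of which passed. Them4, a mitochondrial thioesterase, rose on MCD by 1.23 in WT (adjusted p = 8.6e-06) and 1.30 in Pctp-/- mice (adjusted p = 7.5e-06). Baat, which joins bile acids to amino acids, fell by 0.57 (adjusted p = 5.1e-04) and by 0.62 (adjusted p = 3.9e-04). Of 7 genes listed, Acot5, Acot6, Them5 and Acot10 were under the filter.

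The acyl-CoA synthetases, which catalyse the opposite reaction, mostly fell on MCD. Of 17 tested, 10 were lower and 2 higher in WT, and 12 were lower and 3 higher in Pctp-/- mice, 70.6% and 88.2% of the list, where 57.0% and 50.3% of all tested genes passed. The list had median log2 fold changes of -0.76 and -0.75 beside 0.11 and 0.04 over all tested genes. The largest changes in WT were in Slc27a5, a very long-chain and bile acid CoA ligase (-2.41, adjusted p = 1.8e-07), in the medium-chain synthetase Acsm5 (-1.79) and in the long-chain synthetase Acsl3 (1.69). In Pctp-/- mice they were in Slc27a5 (-1.83), Acsf2 (-1.70) and the acetyl-CoA synthetase Acss2 (-1.50).

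Lists of fatty acid oxidation held called genes of both directions. Of 20 peroxisomal genes, 12 fell and 3 rose in WT, and 11 fell and 4 rose in Pctp-/- mice, 75.0% of the list in each genotype. The thiolase Acaa1b fell by 1.84 in WT and fell by 2.16 in Pctp-/- mice, and the transporter Abcd2 rose by 2.05 and 2.66. Of 19 mitochondrial genes, 4 rose and 6 fell in WT, and 5 rose and 7 fell in Pctp-/- mice, 52.6% and 63.2% of the list, beside 57.0% and 50.3% of all tested genes. Acaa2, a mitochondrial thiolase, fell by 1.14 and by 1.11, while Hadhb, the thiolase subunit of the trifunctional protein, rose by 0.95 and 1.15. Acad11 fell by 0.87 in WT, and Eci1 fell by 0.60 in Pctp-/- mice. The median log2 fold change was -0.45 and -0.44 over the peroxisomal genes and -0.07 and 0.01 over the mitochondrial genes.

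Target genes of PPARα included both the largest rises and some falls. Of 20 tested, 12 rose and 4 fell in WT, and 11 rose and 1 fell in Pctp-/- mice. That was 80.0% and 60.0% of the list, where 57.0% and 50.3% of all tested genes passed. The median log2 fold changes of the list were 1.26 and 0.98. The hormone gene Fgf21 rose by 6.23 and 4.48, the fatty acid hydroxylase Cyp4a14, which has close paralogs, by 5.27 and 5.65, and the fatty acid transporter Cd36 by 5.04 and 4.72. Acot1 fell over the same comparisons in which these genes rose. Of the 6 listed receptors and partners, Hnf4a (-1.10 and -0.87) and Rxra (-0.996 and -0.86) fell in both genotypes, Ppard fell (-0.84 and -1.26), and the coactivator Ppargc1a rose (1.04 and 1.35). Ppara fell by 0.47 in WT (adjusted p = 0.0432) and was at 0.22 in Pctp-/- mice (95% interval -0.18 to 0.62).

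Of 14 tested genes for the synthesis, breakdown and binding of CoA and acyl-CoA, 5 rose and 4 fell in WT, and 3 rose and 5 fell in Pctp-/- mice. That was 64.3% and 57.1% of the list, beside 57.0% and 50.3% of all tested genes. Nudt7, a peroxisomal enzyme that cleaves CoA, fell by 1.86 in WT and fell by 1.75 in Pctp-/- mice, and the mitochondrial CoA carrier Slc25a42 fell by 1.37 and by 0.93. Acbd4, an acyl-CoA binding protein, fell on MCD by 1.12 and by 1.07, and it was the 1 gene over these lists that passed between the genotypes. It was higher in Pctp-/- mice by 0.90 on chow (adjusted p = 0.0018) and by 0.96 on MCD (adjusted p = 7.9e-04). It lies on the same chromosome as Pctp, so loss of PC-TP and a linked difference in DNA cannot be told apart here. In the other lists 0 genes passed between the genotypes on either diet. At an unadjusted p under 0.05 on MCD, which 16.3% of all tested genes reached, there were 8 of 17 acyl-CoA synthetases, 5 of 14 CoA genes, 4 of 20 PPARα target genes, 1 of 6 receptors and partners, 1 of 19 mitochondrial, 1 of 20 peroxisomal and 0 of 3 other thioesterase genes. The difference of the diet responses passed for 0 genes in each list, with 8 of 17 synthetases, 3 of 20 PPARα target genes, 2 of 14 CoA genes, 1 of 6 receptors and 0 of the remaining lists at an unadjusted p under 0.05, beside 15.1% of all tested genes.

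The genes most like the member with the largest called fall and the one with the largest called rise in WT were taken by Pearson correlation of log2(FPKM + 1) over the 12 livers. As the libraries fall into 2 sets by diet, which also differ in sequencing, these values describe a shared split by diet and were not tested. Nearest to Acot1 were Plbd2 (r = 0.981), Gtf2i (0.977), Ttc7b (0.975), C8a (0.975) and Wbp1 (0.974), and 860 tested genes had an r over 0.9. Nearest to Acot9 were Ifi27l2a (0.990), Plac8 (0.989), Fam45a (0.988), Ddx1 (0.987) and Metap2 (0.986), with 1745 genes over 0.9. Mean FPKM of Ifi27l2a was 1.15 in WT and 1.36 in Pctp-/- mice on chow, and 26.9 and 9.61 on MCD. Plac8 was at 1.66 and 2.14 FPKM on chow and at 11.2 and 6.002 FPKM on MCD. Both were chosen for their likeness to Acot9 over these same livers, so their values are no separate evidence on it.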

How the data were processed

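Liver RNA was isolated with a miRNeasy kit and sequenced by Novogene. For 35275 Ensembl genes the authors deposited FPKM in each library, together with a table with read totals as whole-read counts and with quality and mapping measures as percentages (percent of reads). The labels name the build mm10, and the aligner, the counting tool and the strand setting were not given in the sources used here. FPKM are not counts, so the Wald test that the study names could not be run. The depth was 30486576 to 55179468 uniquely mapped reads per library. The fragments behind a value were estimated from exon length and uniquely mapped reads, and cover counting error only.

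Genes averaging 0.5 FPKM or more across the 12 libraries (12466) were tested two-sided on log2(FPKM + 1) with limma 3.58.1 (R 4.3.3), with 1 mean per group and a mean-variance trend. The p-values were adjusted by Benjamini-Hochberg over all tested genes of a contrast, with a threshold of 0.05 and no minimum fold change. There were 5 contrasts, namely Pctp-/- against WT within chow and within MCD, MCD against chow within WT and within Pctp-/-, and the difference between the latter pair. An exact permutation of 3 mice against 3 cannot go below 0.1. Groups were called apart where no value of one lay within the range of the other. Symbols and positions came from GENCODE M21 of GRCm38, which held 34490 of the identifiers, and promoter windows from RefSeq. Protein sequences were not used here. No pair of libraries held identical values.

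The named genes were all 9 members, up to 3 called genes with the largest absolute change of each pathway list, the 5 genes most like the member with the largest called rise and fall in WT, Pctp and the other listed thioesterases, and some genes under this rule are not reported here. Genes that overlap a member, Acot5, Acot6, Ppara, Ppard and further markers were named with their values known. The members, lists and tests were chosen with earlier results of these data known. The script was tested on simulated data. Alternatives were the pseudocount (0.1), the filter, quantile and median-of-ratios scaling, a replicate block, fits of only the groups compared, limma's trend and robust options, a minimum log2 fold change of 1 and each library left out. Scripts used Python 3.11.15, pandas 2.3.3, numpy 2.4.6 and matplotlib 3.10.9.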

Additional observations from a re-analysis of the deposited data

How the results depend on the processing

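The counts of members called stayed within 1.5 times the reported ones except in 2 settings. With the replicate block, 1 member (Acot9) passed between the genotypes on MCD, and with a filter at a mean FPKM of 5, which kept 7 members and dropped Acot9 and Acot11, 3 passed in WT. With a library left out, 5 to 6 members passed for the diet in WT, 5 to 8 in Pctp-/- mice, and 0 for the knockout on chow, the knockout on MCD and the difference of the diet responses. Values with no call changed sign in some settings. Quantile normalization gave 0.0013 for Acot11 and 0.012 for Acot12 between the genotypes on MCD, and 0.040 for Acot7, 0.050 for Acot11 and 0.13 for Acot12 for the difference of the diet responses. Median-of-ratios scaling gave 0.046 for Acot11 and 0.070 for Acot12 for that difference. With a library left out, the knockout on chow ranged from -0.939 to 0.0397 for Acot3 and from -0.178 to 0.0336 for Acot11. The knockout on MCD then ranged from -0.351 to 0.387 for Acot1, from -0.0237 to 0.115 for Acot7 and from -0.233 to 0.141 for Acot11. The difference of the responses ranged from -0.606 to 0.132 for Acot1, from -0.213 to 0.0130 for Acot7, from -0.0482 to 0.176 for Acot8, from -0.176 to 0.198 for Acot11 and from -0.0855 to 0.0442 for Acot12. No called change of a member turned its direction under these alternatives. The cause of these shifts was not tested. Where a group was left with 2 libraries, the fit pooled the spread over the groups.

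The replicate numbers name different mice. Over 18 same-numbered pairs of libraries, deviations from the group means correlated from -0.0972 to 0.2249, with 8 pairs over 0.1 and 15 over 0, while of 36 pairs with different numbers 3 were over 0.1 and 14 over 0. Of 12 libraries, 9 correlated best with a library of their own number. This is a hint of pairing from the data, not from the design. The labels name no shared litter or batch and not every pair was over 0.1, so the reported fits have no block. Over all tested genes, the replicate block moved the count from 17 to 32 for the knockout on chow, from 102 to 115 on MCD and from 12 to 59 for the difference of the responses. With a library left out, the knockout called 8 to 34 genes on chow (34 without WT chow replicate 1) and 27 to 173 on MCD (27 without Pctp-/- MCD replicate 2, 173 without WT MCD replicate 3), and the difference 0 to 60 (0 without Pctp-/- MCD replicate 2, 60 without WT chow replicate 1 or WT MCD replicate 3), so the shares of all tested genes given for these comparisons moved with single libraries. The counts were 4 and 19 for the knockout on chow and on MCD with only the libraries compared. With an added minimum log2 fold change of 1, the diet called 1777 genes in WT and 1343 in Pctp-/- mice, and the knockout 33 on MCD. The knockout called 10 genes on chow with no filter, and 55 on MCD after median-of-ratios scaling. The difference of the responses called 3 genes with a pseudocount of 0.1, 18 after quantile normalization, 6 after median-of-ratios scaling and 7 without a trend. A test for members under the filter was not needed, since all 9 passed it, and a fit with only the compared groups is not possible for the difference of the responses. The lowest value of Acot9 rested on about 29 fragments, so its chow values carry the largest counting error.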

Other observations

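Markers of other liver cells were followed beside the thioesterases. Of 9 macrophage markers tested, Lyz2 (log2 fold change 3.26 in WT and 3.04 in Pctp-/- mice), Cd68 (2.49 and 1.78) and Marco (1.92 and 1.10) rose on MCD in both genotypes. Of 10 stellate cell markers, Dcn (2.07 and 1.83), Lrat (1.41 and 1.03) and Rgs5 (1.16 and 0.98) rose. Endothelial markers moved both ways in WT, where Lyve1 (0.69) and Clec4g (0.49) rose and Vwf fell by 1.10, and 0 of 10 passed in Pctp-/- mice, with 1 at an unadjusted p under 0.05 from limma. Of 6 cholangiocyte markers tested, Spp1 (0.75) and Cd24a (0.63) rose in WT, while Sox9 fell by 1.17 in Pctp-/- mice. Of 4 lymphocyte markers tested, Trbc2 (0.77) rose in WT. Among 10 hepatocyte markers, 2 were higher and 5 lower on MCD in each genotype, with Alb higher by 1.02 in Pctp-/- mice. Over all tested genes, 34.5% were higher and 22.5% lower on MCD in WT, and 26.0% and 24.4% in Pctp-/- mice. Between the genotypes 0 markers of these lists passed on either diet. At an unadjusted p under 0.05 there were 4 hepatocyte, 1 macrophage, 1 stellate cell and 1 endothelial marker on MCD and 1 endothelial marker on chow. Over all tested genes, 16.3% reached this on MCD and 6.98% on chow.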
